A study of Branchiostoma lanceolatum with 24 samples.

Results

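A set of 45 contigs, out of 96094 in the deposited transcriptome table of the European amphioxus Branchiostoma lanceolatum, rose steeply in control embryos by 14 hours post fertilisation (hpf) and stood at a similar level in embryos kept in SU5402. A contig was taken when its mean in DMSO embryos at 14 hpf was at least 10 CPM and at least 8 times its mean at 8 hpf, and when the ratio of the SU5402 mean to the DMSO mean lay in a band from 0.8 to the reciprocal of 0.8 at both 11 and 14 hpf. The contigs were thus chosen by their mean CPM in the early libraries, and these values are given as a description, with no test. CPM is the read count divided by the library total, times 1000000. Contig lengths were not given in the sources used here, so levels are compared between samples and not between contigs.

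Each library was made from whole embryos, mixed, that had been kept in 50 µM SU5402 or in 0.1% DMSO as the control. SU5402 is an inhibitor of the FGF receptor tyrosine kinase. Exposure began at 5 hpf in the early series, with samples at 8, 11 and 14 hpf, and at 15.5 hpf in the late series, with samples at 18.5, 21.5 and 24.5 hpf, so that both held exposures of 3, 6 and 9 h. All 12 groups held 2 libraries, and library totals ran from 10866511 to 39988564 reads, with the 8 libraries of 6 h exposure the shallowest at 18924324 reads or fewer. The labels name no strain or genotype, and do not state if replicates had separate parents or dishes.

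Fibroblast growth factors are secreted ligands that bind receptor tyrosine kinases at the cell surface and act in large part through the MAP kinase cascade on transcription. Amphioxus is a cephalochordate, an invertebrate relative of vertebrates whose body is segmented into somites from its front end. In amphioxus, FGF signalling is known to be needed for the most anterior somites. The table pairs no contig with a gene name, and 0 contig identifiers matched the RefSeq gene table of the species, so the contigs are given by their identifiers, with no function, position or sequence.

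Most contigs that rose in control embryos lay below the band in treated ones. Of the 11423 contigs at 10 CPM or more in DMSO embryos at 14 hpf, 937 had risen at least 8-fold since 8 hpf. At 14 hpf 595 of these 937 had an SU5402 to DMSO ratio under 0.8, 81 had one above the band and 261 lay within the band. Of those 261, 210 were under 0.8 and 6 above the band at 11 hpf, which left the 45, or 4.8% of the contigs that rose. The 892 others had a median ratio of 0.489 at 11 hpf and 0.665 at 14 hpf. All 11423 contigs had medians of 0.826 and 0.913, with 5271 under 0.8 at 11 hpf and 3831 at 14 hpf. The 892 were outside the band by the rule, and the rise and the ratio shared the DMSO mean at 14 hpf. The difference between these lists was not tested.

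**Figure D1:**
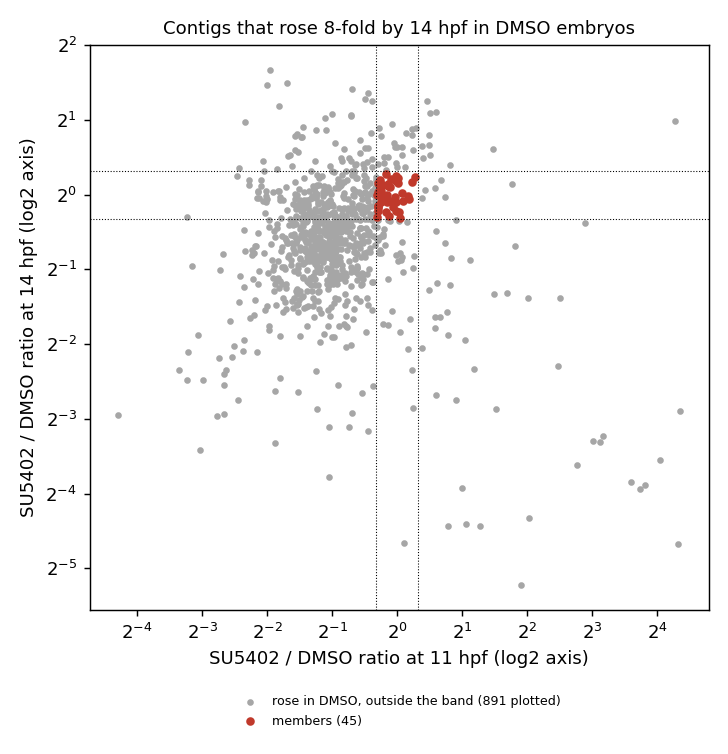
SU5402 to DMSO ratio of mean CPM at 11 hpf (x axis) and 14 hpf (y axis), both on log2 axes, for the contigs that rose at least 8-fold in DMSO embryos; each point is 1 contig and dotted lines mark the limits of the band. The 45 members (red) sit inside the square by choice, to the right of the densest part of the cloud, whose medians are 0.489 and 0.665; 1 of the 892 others has no ratio at 11 hpf and is not drawn.

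Contigs lay on both sides of each limit of the rule. The smallest ratio inside the band at 11 hpf was 0.801 and the nearest one outside was 0.7997. At 14 hpf the corresponding pair was 0.802 and 0.794. At the upper limit, the highest ratios inside were 1.20 at 11 hpf and 1.22 at 14 hpf, with the next contigs outside at 1.30 and 1.26. The smallest rise taken was 8.01-fold and the largest one left out was 7.93-fold. The lowest 14 hpf level taken was 10.9 CPM, against 9.77 CPM for the nearest contig below the limit.

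The median level of the 45 contigs in DMSO embryos went from 1.55 CPM at 8 hpf to 7.93 CPM at 11 hpf and 18.6 CPM at 14 hpf. In SU5402 embryos the medians at these stages were 2.37, 7.27 and 17.9 CPM. The rise from 8 to 14 hpf ranged from 8.01-fold to 80.7-fold in DMSO embryos, with a median of 11.8. Under SU5402 it ranged from 2.59-fold to 57.5-fold, with a median of 10.2, and 28 of the 45 rose at least 8-fold.

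ContigAmph94088 and ContigAmph14741 had the steepest rises in control embryos. ContigAmph94088 stood at 0.177 and 0.134 CPM (6 and 4 reads) in the DMSO libraries at 8 hpf, at 6.65 and 4.10 CPM at 11 hpf and at 15.8 and 9.27 CPM at 14 hpf. Its SU5402 libraries held 0.225 and 0.168 CPM, then 5.13 and 3.63 CPM, then 9.39 and 13.2 CPM. The libraries of the groups overlapped at 11 and 14 hpf, and the 14 hpf pair of each group was 1 high and 1 low library. ContigAmph14741 went from 0.531 and 0.134 CPM (18 and 4 reads) in DMSO embryos to 12.3 and 11.4 CPM, and from 0.675 and 0.741 CPM to 14.0 and 14.8 CPM with SU5402. At 14 hpf both SU5402 libraries were above both DMSO libraries, by a ratio of means of 1.22.

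**Figure D2:**
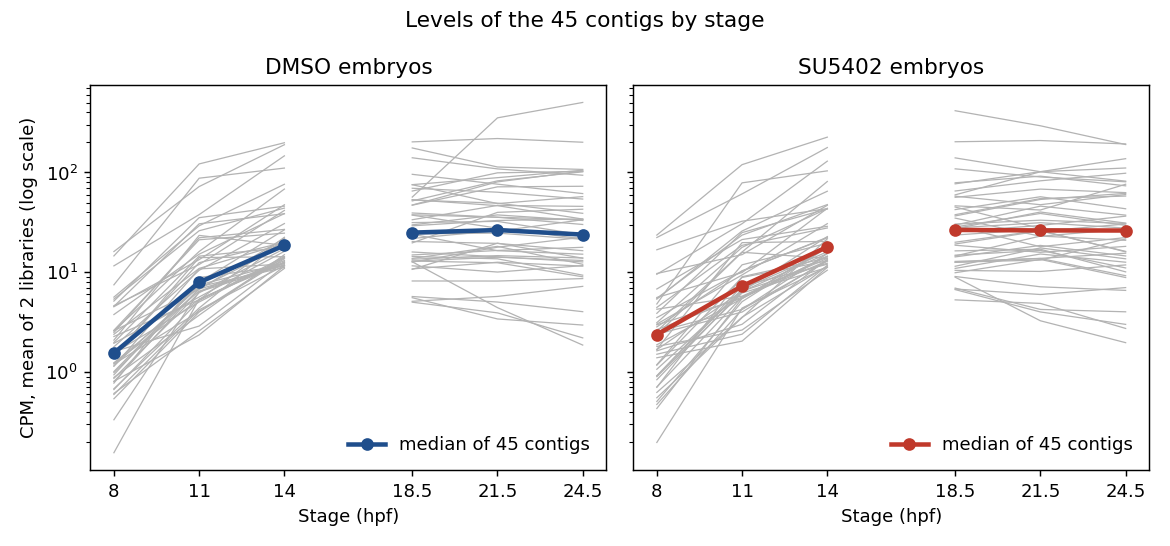
Mean CPM of 2 libraries (log axis) of each of the 45 contigs (grey lines) at the 6 stages, in DMSO embryos (left) and SU5402 embryos (right), with the median of the 45 as a coloured line; lines are broken between the series, which were treated from different stages. The medians rise from 1.55 to 18.6 CPM and from 2.37 to 17.9 CPM by 14 hpf, and lie between 23.9 and 26.6 CPM in the late series.

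Much of the rise had taken place by 11 hpf. In DMSO embryos the median contig had gone through 66% of its log2 rise from 8 to 14 hpf at 11 hpf, and 37 of the 45 had risen by a larger fold from 8 to 11 hpf than from 11 to 14 hpf. Under SU5402 the median share was 64.8%, and 30 of the 45 had the larger fold in the earlier interval. The members were not uniform in this. ContigAmph16558 was already at 20.4 and 26.5 CPM in DMSO embryos at 11 hpf, above its 17.9 and 19.3 CPM at 14 hpf, and at 19.7 and 19.9 CPM with SU5402. ContigAmph6418 likewise stood at 12.1 and 16 CPM at 11 hpf and at 14.3 CPM in both DMSO libraries at 14 hpf. The rule used the DMSO means at 8 and 14 hpf, and the shares in other contigs are not given here. Libraries at 11 hpf had 15 PCR cycles, against 12 at 8 and 14 hpf. Stage and library preparation thus cannot be told apart in these shares.

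ContigAmph4675 and ContigAmph5665 had the smallest shares of their rise at 11 hpf. ContigAmph4675 was at 1.53 and 1.67 CPM in DMSO embryos at 8 hpf and still at 2.90 and 2.88 CPM at 11 hpf, before 14.6 and 11.1 CPM at 14 hpf, so that 28.3% of its log2 rise was reached at 11 hpf. Its SU5402 libraries held 2.85 and 2.42 CPM at 11 hpf and 8.85 and 12.1 CPM at 14 hpf. ContigAmph5665 had reached 37% of its log2 rise at 11 hpf in DMSO and 33.9% in SU5402 embryos.

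At 8 hpf, after 3 h of treatment, the members were not held to a ratio, although the DMSO mean at 8 hpf entered the rule as the base of the rise. The ratio of SU5402 to DMSO at 8 hpf had a median of 1.21 and ran from 0.587 to 3.27. It was above the band in 22 contigs, below 0.8 in 7 and within the band in 16. Among the 892 other contigs that rose the median was 0.922, with 264 above the band, 350 below it and 278 within. Both SU5402 libraries exceeded both DMSO libraries in 21 of the 45 and lay below both in 7. Of the 11423 contigs at 10 CPM or more, 17% and 51.1% did so. As the rule took contigs with a low DMSO mean at 8 hpf, nothing is read from these ratios and counts.

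The early libraries fixed these ratios loosely. Replicates lay farther apart in the early than in the late series, with a common biological coefficient of variation of 27.2% and 6.83%. The 95% interval of the SU5402 to DMSO ratio from limma-voom lay wholly inside the band for 0 of the 45 at 11 hpf and for 3 at 14 hpf. These intervals are on values TMM-scaled within the early series, and the median ratio of that fit at 11 hpf was 0.834. The band was set on library totals, where the median was 0.899. The upper bound of the interval was a median of 2.12 times the lower bound at 11 hpf and 1.72 times at 14 hpf.

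Single libraries gave another view of the same limit. At 11 hpf the libraries of the 2 groups overlapped in 33 of the 45, with SU5402 above in 2 and below in 10, beside 16.7% and 52.2% of the 11423 contigs. At 14 hpf they overlapped in 28, with SU5402 above in 12 and below in 5, beside 25.5% and 44.1%. The rule used these values, so nothing is read from those counts. All 4 ratios of an SU5402 library to a DMSO library lay in the band for 9 contigs at 11 hpf, for 23 at 14 hpf and for 6 at both. With replicate 1 of every group alone 43 contigs passed the rule and with replicate 2 alone 46, of which 19 and 24 were among the 45. Both replicates shared 9 contigs, or 20.9% of the 43 and 19.6% of the 46. Of all contigs that rose in the other replicate, 4.86% and 4.5% were in the band there. The difference between these shares was not tested.

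The list also depended on how libraries were scaled. TMM scaling adjusts each library total by a factor estimated from the contigs. It lowered the median log2 ratio of all contigs at 11 hpf from 0.05 to -0.13. On that scale 14 of the 45 contigs still passed and 19 contigs passed in all. The ratio at 11 hpf fell under 0.8 for 25 of the 45, the ratio at 14 hpf for 3, and the rise was under 8-fold for 13, with a lowest value of 6.60. The median ratio of the 45 was then 0.794 at 11 hpf and 0.951 at 14 hpf. These are ratios of mean CPM with factors from all 24 libraries, unlike the limma-voom ratios given above.

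The late series, whose 12 libraries took no part in the choice, showed where the members stood later and how they responded to SU5402 given from 15.5 hpf. In DMSO embryos 34 of the 45 contigs stood within 2-fold of their 14 hpf level at 18.5 hpf, 7 were more than 2-fold above it and 4 less than 0.5 times it. At 24.5 hpf these counts were 28, 10 and 7. All 3 late DMSO means were at 10 CPM or more for 37 contigs. The early and late embryos were treated from different stages, and these ratios between series were not tested.

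**Figure D3:**
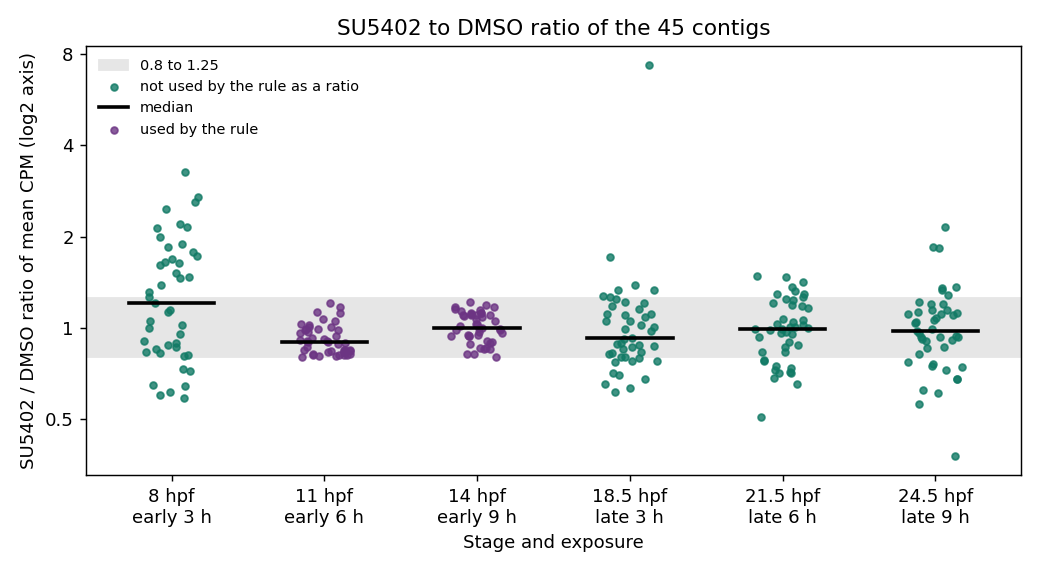
Ratio of mean SU5402 to mean DMSO CPM (log2 axis) of each of the 45 contigs at the 6 stages, with the median as a bar and the band in grey; purple points were used to choose the contigs. The late medians are 0.926, 0.993 and 0.972, and 28, 26 and 27 of the 45 points lie in the grey band there.

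The ratio of most members lay in the band at each late stage. It was within the band for 28 contigs at 18.5 hpf, 26 at 21.5 hpf and 27 at 24.5 hpf, or 62.2%, 57.8% and 60%. Of all 11423 contigs at 10 CPM or more in DMSO embryos at 14 hpf, 64.5%, 63% and 67.5% were within it at these stages, and of the 73087 contigs in the late fit 45.7%, 42.2% and 50.7%. At all 3 late stages together 11 of the 45, 24.4%, were in the band, against 39.6% of those 11423 contigs, 18.1% of all in the late fit and 18.9% of the 892 others that rose. Of the 45, 17 were in the band at 2 late stages, 14 at 1 and 3 at 0. The shares of the 45 were below those of the 11423 contigs and above those of all contigs in the fit, and these differences were not tested.

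In the edgeR quasi-likelihood fit of the 12 late libraries, with Benjamini-Hochberg adjustment over 73087 contigs at 0.05, 36 of the 45, 80%, were called in at least 1 of the 3 late SU5402 comparisons. The shares were 45.3% of all contigs tested and 72.7% of those at 10 CPM or more in DMSO embryos at 14 hpf. With all 24 libraries in the fit, 13 of the 45, or 28.9%, were called at least once, as were 37% of the contigs at 10 CPM or more. The DESeq2 Wald test called 30, or 66.7%, and 60.1%. All 45 had passed the filter on low counts. ContigAmph32800 was the single member higher with SU5402 at all 3 stages. ContigAmph118, ContigAmph25062, ContigAmph4481 and ContigAmph16314 were lower at all 3, the last named after its values were seen. In 5 members the calls went in opposite directions at different stages: ContigAmph5596, ContigAmph11652, ContigAmph5591, ContigAmph90422 and, named after its values were seen, ContigAmph11944. In the fit of all 24 libraries 1 member was higher and 1 lower at all 3 stages, and 1 had opposite calls. The shares of all contigs with such patterns are not given here, so nothing is read from the pattern counts.

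After 3 h of late treatment, at 18.5 hpf, 10 members were higher with SU5402 and 17 lower, beside 16.4% of all contigs tested called higher and 14% called lower. Among contigs at 10 CPM or more at 14 hpf, 16.2% were higher and 31.2% lower, against 22.2% and 37.8% of the members. Of the 27 called, 6 had changed over 1.5-fold and 1 over 2-fold, and the median log2 fold change of the members was -0.13. The shares of all called contigs past these folds are not given, here or at the later stages, so nothing is read from such counts. Both SU5402 libraries lay above both DMSO libraries in 15 members and below both in 22, where 29.5% and 44.2% of abundant contigs did so. The count of higher members rested on single libraries: it was 3 without DMSO replicate 2, 5 without SU5402 replicate 1 and 4 without SU5402 replicate 2. The fit of all 24 libraries, with 1 spread for both series, called 2 higher and 6 lower, and the DESeq2 Wald test called 4 higher and 16 lower.

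ContigAmph5596 stood apart at this stage. It was at 57.9 and 55.5 CPM in the DMSO libraries and at 408 and 423 CPM in the SU5402 libraries, or 2.85 ± 0.095 SE higher on the log2 scale by the fit (adjusted p = 1.5e-18). In the early series the same contig had been at 37.1 and 46.2 CPM in DMSO embryos at 14 hpf. Its SU5402 libraries held 46.8 and 40.7 CPM there and overlapped with the DMSO ones. The rule had kept the ratio of means at 14 hpf in the band, so nothing is read from that overlap. At 18.5 hpf ContigAmph32800 was at 16.5 and 11.0 CPM in the controls and at 24.5 and 22.7 CPM in treated embryos (log2 difference 0.76 ± 0.12 SE, adjusted p = 1.7e-05). Its DMSO libraries differed from each other, and both were below the treated ones. The difference was 0.47 without DMSO replicate 2 and 1.07 without DMSO replicate 1.

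ContigAmph11652 and ContigAmph25062 were the members lowered with the smallest p at 18.5 hpf. ContigAmph11652 was at 74.2 and 76.6 CPM in DMSO and 47.4 and 45.3 CPM in SU5402 embryos (log2 difference -0.73 ± 0.075 SE, adjusted p = 1.1e-08). ContigAmph25062 was at 48.9 and 54.9 CPM against 36.9 and 36.5 CPM (log2 difference -0.53 ± 0.075 SE, adjusted p = 2.6e-06). For both contigs the groups did not overlap at 18.5 hpf, while at 14 hpf their libraries did. The rule had kept the ratio of their means at 14 hpf in the band, so nothing is read from that contrast.

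After 6 h, at 21.5 hpf, 5 members were higher and 13 lower, beside 11% and 10.6% of all contigs tested. For contigs at 10 CPM or more at 14 hpf the shares were 14.4% and 28.5%, and for the members 11.1% and 28.9%. Of the 18 members called, 3 had changed over 1.5-fold. The treated libraries were both above the controls in 14 members and both below in 16, beside 36% and 39.7% of the 11423 contigs. The higher count was 2 without DMSO replicate 1 and 3 without SU5402 replicate 1, while library totals in place of TMM factors gave 9. The fit of all 24 libraries called 2 higher and 3 lower.

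ContigAmph4481 changed the most at 21.5 hpf, from 32.3 and 38.8 CPM in DMSO to 17.6 and 18.4 CPM in SU5402 embryos (log2 difference -1.04 ± 0.11 SE, adjusted p = 4.1e-08). ContigAmph25062 was again lower, at 51.6 and 55.7 CPM against 81.2 and 83.7 CPM (log2 difference -0.69 ± 0.077 SE, adjusted p = 1.1e-07). ContigAmph7376 was higher, at 67.2 and 69.1 CPM against 46.1 and 46.9 CPM in DMSO embryos (log2 difference 0.48 ± 0.079 SE, adjusted p = 4e-05). ContigAmph5665, a late riser in the early series, was at 96.0 and 107 CPM against 70.2 and 73.3 CPM (log2 difference 0.43 ± 0.084 SE, adjusted p = 0.00034). In each of these 4 contigs the treated and control libraries did not overlap.

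After 9 h, at 24.5 hpf, 6 members were higher and 13 lower, beside 11.7% and 11.2% of all contigs tested. The shares among contigs at 10 CPM or more at 14 hpf were 18.2% and 22.7%, and among the members 13.3% and 28.9%. Of the 19 members called, 8 had changed over 1.5-fold and 2 over 2-fold. Here 17 members had both treated libraries above the controls and 19 had both below, beside 41% and 31% of the 11423 contigs. The fit of all 24 libraries called 3 higher and 3 lower.

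ContigAmph5596, which SU5402 had raised at 18.5 hpf, was lower with it at 24.5 hpf, at 166 and 215 CPM against 461 and 546 CPM in DMSO embryos (log2 difference -1.46 ± 0.089 SE, adjusted p = 1.1e-12). ContigAmph118 was at 60.8 and 55.3 CPM against 99.6 and 107 CPM (log2 difference -0.89 ± 0.075 SE, adjusted p = 4.7e-10). ContigAmph7376 was higher, at 66.0 and 59.6 CPM against 33.5 and 34.8 CPM (log2 difference 0.82 ± 0.075 SE, adjusted p = 2.5e-09). ContigAmph32800 stood at 24.6 and 27.2 CPM against 11.7 and 12.3 CPM (log2 difference 1.05 ± 0.12 SE, adjusted p = 2.7e-07). The groups of these 4 contigs were again apart at every library.

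The late intervals were narrower than the early ones. The upper bound of the 95% limma-voom interval was a median of 1.29, 1.37 and 1.30 times the lower bound at 18.5, 21.5 and 24.5 hpf. The interval lay wholly within the band for 7, 8 and 10 of the 45 contigs and held 1 for 15, 23 and 20. These intervals too are on TMM-scaled values, while the band was set on library totals. The shares among other contigs are not given here, so nothing is read from these counts.

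Between 18.5 and 24.5 hpf more members fell than rose in both treatments, as did more of the contigs at 10 CPM or more at 14 hpf. In DMSO embryos 11 members rose and 21 fell, beside 17.5% of all contigs tested called higher and 16% called lower, and beside 17.3% and 44.7% of contigs at 10 CPM or more, where the members' shares were 24.4% and 46.7%. In SU5402 embryos 9 rose and 17 fell, beside 15.8% and 17.2% of all contigs tested. Contigs at 10 CPM or more had shares of 18.3% and 36.4% there, and the members 20% and 37.8%. Of the members, 6 rose and 12 fell in both treatments, and 2 moved in opposite directions, ContigAmph5596 and ContigAmph11652. The shares of all contigs that did so are not given here, and nothing is read from these counts. The fit of all 24 libraries called 6 risen and 12 fallen in DMSO and 5 and 7 in SU5402 embryos.

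ContigAmph5596 rose the most in DMSO embryos over this time, from 57.9 and 55.5 CPM to 461 and 546 CPM (log2 difference 3.06 ± 0.095 SE, adjusted p = 1.5e-19), and fell in SU5402 embryos from 408 and 423 CPM to 166 and 215 CPM (log2 difference -1.25 ± 0.089 SE, adjusted p = 8.1e-12). ContigAmph118 rose in DMSO embryos from 45.4 and 48.9 CPM to 99.6 and 107 CPM (log2 difference 1.04 ± 0.075 SE, adjusted p = 9.2e-12). ContigAmph18242 fell in both, from 11.7 and 13.8 CPM to 1.45 and 2.28 CPM in DMSO embryos (log2 difference -2.86 ± 0.16 SE, adjusted p = 5.5e-14) and from 9.46 and 8.39 CPM to 2.08 and 1.86 CPM in SU5402 embryos (log2 difference -2.30 ± 0.17 SE, adjusted p = 1.2e-11). It had been at 24.7 and 19.2 CPM in DMSO embryos at 14 hpf, above its level in every late library.

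ContigAmph5591 fell in DMSO embryos from 182 and 171 CPM at 18.5 hpf to 109 and 105 CPM at 24.5 hpf (log2 difference -0.81 ± 0.064 SE, adjusted p = 5.3e-11), while its SU5402 libraries held 142 and 138 CPM and then 141 and 134 CPM. ContigAmph25062 rose in SU5402 embryos from 36.9 and 36.5 CPM to 64.7 and 58.9 CPM (log2 difference 0.63 ± 0.074 SE, adjusted p = 1.6e-07). ContigAmph11652 rose there from 47.4 and 45.3 CPM to 76.8 and 75.6 CPM (log2 difference 0.59 ± 0.075 SE, adjusted p = 4.3e-07). In DMSO embryos ContigAmph11652 went the other way, from 74.2 and 76.6 CPM to 61.4 and 53.2 CPM (log2 difference -0.49 ± 0.074 SE, adjusted p = 6.1e-06).

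**Figure D4:**
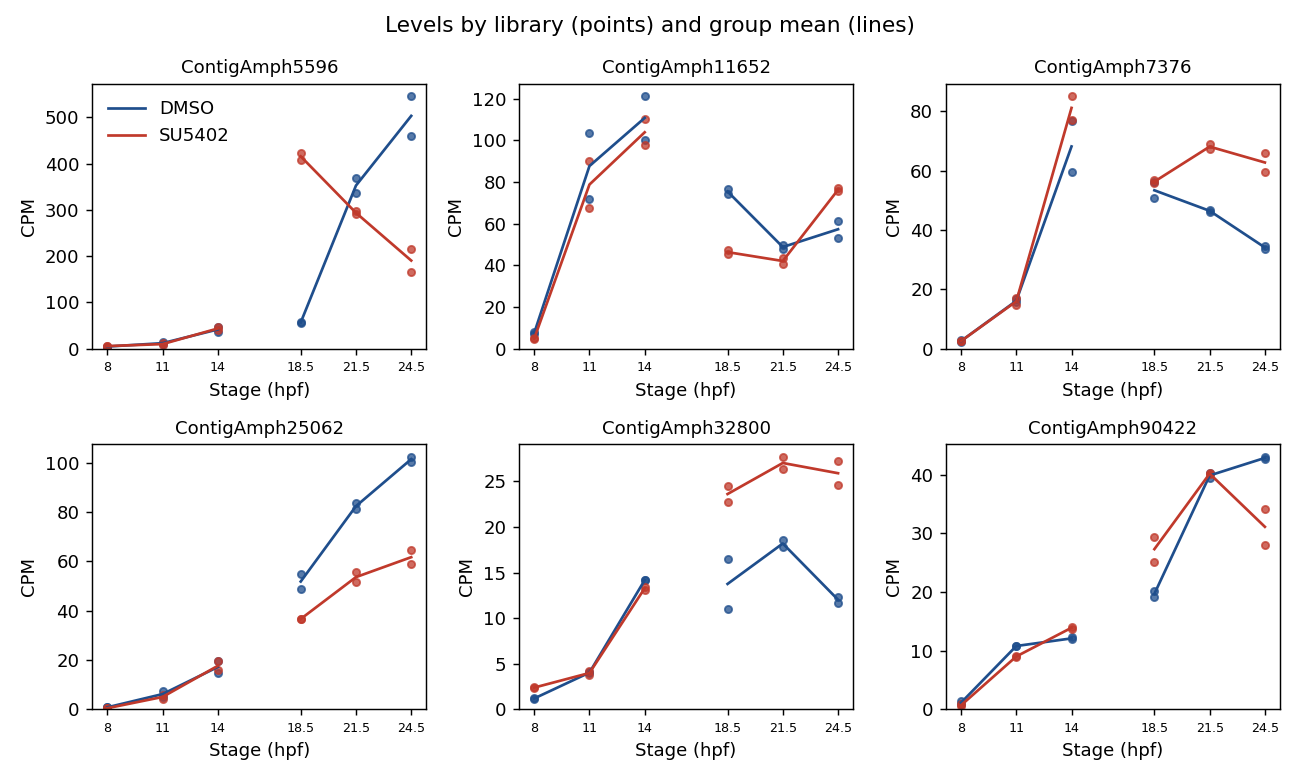
CPM of 6 of the named contigs at the 6 stages in each DMSO (blue) and SU5402 (red) library, with lines through group means, broken between the series. ContigAmph5596 goes from 57.9 and 55.5 to 461 and 546 CPM in late DMSO embryos and from 408 and 423 to 166 and 215 CPM in late SU5402 embryos. At 11 and 14 hpf the ratio of the group means is in the band for all 6 contigs by choice, as the rule required it.

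The SU5402 effect itself changed between 3 h and 9 h of late treatment in 17 members, as tested by the interaction of treatment and time. It became more positive in 10 and more negative in 7, beside 7% and 8.63% of all contigs tested, and beside 20.8% and 14.3% of contigs at 10 CPM or more at 14 hpf. The members' shares were 22.2% and 15.6%. With all 24 libraries in the fit these counts were 3 and 2, and by the DESeq2 Wald test 7 and 4. The effect on ContigAmph5596 changed by -4.31 in log2 units (± 0.13 SE, adjusted p = 1.3e-18). That on ContigAmph11652 changed by 1.08 (± 0.11 SE, adjusted p = 1.8e-08) and that on ContigAmph7376 by 0.77 (± 0.105 SE, adjusted p = 4.9e-06). ContigAmph90422 was raised by SU5402 at 18.5 hpf, with 29.4 and 25.2 CPM against 20.2 and 19.2 CPM, at 40.0 and 40.3 CPM against 39.4 and 40.3 CPM at 21.5 hpf, and lowered at 24.5 hpf, with 28.1 and 34.1 CPM against 43.0 and 42.6 CPM, a change of -0.96 (± 0.13 SE, adjusted p = 6.3e-06).

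The other contigs that rose by 14 hpf give a point of reference. Of the 128 with an SU5402 to DMSO ratio under 0.5 at both 11 and 14 hpf, 127 entered the late fit. At 18.5 hpf 11 of these were higher and 74 lower with late SU5402, with a median log2 fold change of -0.30, against 10, 17 and -0.13 for the 45 members. At this stage 21.5% of the 890 tested of the 892 others that rose were higher and 36.9% lower. These shares were close to the members' 22.2% and 37.8%. At 21.5 hpf the shares of the 890 were 8.65% and 42.9%, against 11.1% and 28.9% of the members. At 24.5 hpf they were 10.3% and 46.1%, against 13.3% and 28.9%. Of the 127 with an early ratio under 0.5, 4 were higher and 85 lower with late SU5402 at 21.5 hpf. Their median log2 fold change was -0.49. The 45 members had 5 higher, 13 lower and a median of -0.07. At 24.5 hpf 11 of the 127 were higher and 67 lower with a median of -0.29, against 6, 13 and -0.10 for the members. The late ratio lay in the band at all 3 stages for 22 of the 128, or 17.2%, beside 24.4% of the members. These lists were not tested against each other.

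Within the late libraries some pairs of members kept a nearly constant ratio. For 31 of the 990 pairs of members the ratio of their CPM varied by less than 1.5-fold over the 12 late libraries, where the median pair varied 2.49-fold. ContigAmph31140 and ContigAmph31143, named after their values were seen, kept a ratio of 0.719 to 0.814 over the late libraries, although it ranged from 0.269 to 0.814 over all 24. The ratio of ContigAmph118 to ContigAmph25062 stayed within 0.891 and 1.07 in the late libraries and ranged from 0.630 to 1.19 over all 24. How often other contigs pair in this way was not computed, so nothing is read from the count of 31 pairs. Several contigs can come from 1 gene, so members need not be separate genes, and this was not tested.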

How the data were processed

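RNA-seq libraries of whole amphioxus embryos were made from oligo-dT selected RNA with random primers, per the labels' protocols. PCR ran for 15 cycles in the libraries of 6 h exposure and 12 cycles in the others, alike for SU5402 and DMSO. The authors deposited raw read counts for 96094 contigs in 24 libraries. The submitters' processing notes list the aligner BWA, version 0.6.1. How contigs were assembled and reads counted, and whether strand was used, is not given in the sources used here.

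The members and tests were chosen with earlier results of these data known. Contigs were chosen on CPM from column totals. The 12 late libraries were fitted in edgeR 4.0.16 (glmQLFit, glmQLFTest; R 4.3.3) with TMM factors, filterByExpr defaults, 1 coefficient per group and 6 residual degrees of freedom, and p-values were adjusted over 73087 contigs. Late libraries were fitted alone because their replicates lay closer together than the early ones. Intervals of ratios came from limma 3.58.1 (voom), on TMM-scaled values, per series. SE is the absolute log2 fold change divided by the square root of F, and understates counting error where reads are few. The procedure was tested on simulated data. Alternatives were DESeq2 1.42.0, other scalings, filters and fits, and each library left out. Replicates of all groups differed by more than sampling noise, with chi-square over degrees of freedom at least 1.39. As separate cultures are not stated, p-values reflect only library-to-library spread, which can be technical. In whole embryos, fewer cells of a type and less RNA per cell cannot be told apart.

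Named contigs are the 2 members with the largest rise in DMSO embryos (among those with at least 3 reads over both 8 hpf libraries), the 2 with the largest and the 2 with the smallest share of it reached at 11 hpf, and the 2 higher and 2 lower with the smallest p in each of the 6 late comparisons. Others are marked as named after their values were seen.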

Additional observations from a re-analysis of the deposited data

Results flagged for a closer look

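In the late series the effect of SU5402 at 24.5 hpf differed from that at 18.5 hpf, by the test of the interaction in edgeR with Benjamini-Hochberg adjustment, for 17 of the 45 members. It was higher at 24.5 hpf in 10 and lower in 7, or 22.2% and 15.6%, beside 20.8% and 14.3% of contigs at 10 CPM or more at 14 hpf. The fit of all 24 libraries called 3 and 2. For ContigAmph5596 the log2 effect changed by -4.31 (adjusted p = 1.3e-18), from 2.85 to -1.46, with both treated libraries outside the range of the controls at both stages. For ContigAmph90422 it changed by -0.96 (adjusted p = 6.3e-06), from 0.45 to -0.52. For ContigAmph11652 it changed by 1.08 (adjusted p = 1.8e-08), from -0.73 to 0.35, and for ContigAmph7376 by 0.77 (adjusted p = 4.9e-06), where the log2 effect at 24.5 hpf was 0.82.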

How the results depend on the processing

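The number of contigs chosen moved by over 1.5 times with each other scaling, band, rise and level tried, and by less when 1 library was left out, although the contigs themselves changed. TMM-scaled CPM gave 19 members, 5 of them in the band at all 3 late stages where the main value was 11. CPM on DESeq2 size factors gave 19 and 4. A band of 0.67 to 1.5 gave 127 and 34, a control rise of at least 4 times 119 and 42, one of at least 16 times 13 and 0, and a level of at least 20 CPM 19 and 6. Without 1 of the 10 libraries behind the rule there were 40 to 51 members, of which at least 30 were among the 45 (30 without SU5402 early 6 h replicate 1), and 9 to 16 contigs were in the band at all 3 late stages when any library behind that count was left out. Replicate 1 or 2 alone, added after seeing the data, gave 43 and 46.

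In the late tests, the fit of all 24 libraries gave fewer calls: 2 higher and 6 lower at 3 h, 2 and 3 at 6 h, 3 and 3 at 9 h, 6 and 12 between 3 h and 9 h in DMSO, 5 and 7 in SU5402, and 3 and 2 for the change of the effect. That fit shares the wider early spread. It called 37% of contigs at 10 CPM or more in at least 1 late SU5402 comparison, against 72.7% in the main fit. The shares of all contigs called in each direction by the alternatives are not given here. The DESeq2 Wald test gave 4 higher at 3 h, 3 higher at 6 h and 4 lower for the change of the effect. Library totals gave 9 higher at 6 h, as did a fit of only the groups compared. With members chosen on TMM-scaled CPM, of which there are fewer, the counts were 5 higher and 4 lower at 3 h, 2 and 3 at 6 h, 4 lower at 9 h, 5 and 6 in DMSO, 3 and 8 in SU5402, and 3 higher for the change of the effect. Leaving out 1 library, with the lone sample assumed to vary like the other groups, gave 3 to 9 higher and 12 to 19 lower at 3 h, 2 to 4 and 10 to 13 at 6 h, 5 and 10 to 14 at 9 h, 8 to 12 and 16 to 21 in DMSO, 8 to 10 and 14 to 16 in SU5402, and 7 to 13 and 5 to 7 for the change of the effect. Apart from differences by construction, the cause was not tested.

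The replicate numbers were not shown to pair the samples, as the correlation of their deviations ran from -0.33 to 0.15 between late groups. With the replicate block the counts were 10 higher and 17 lower at 3 h, 5 and 13 at 6 h, 5 and 13 at 9 h, 11 and 21 in DMSO, 9 and 17 in SU5402 and 10 and 7 for the change of the effect. Crossed numbers, added after seeing the data, gave 5 and 13 at 6 h and 9 and 17 in SU5402. No named contig changed sign in any late alternative. ContigAmph5665 at 6 h was the one named contig to miss the threshold, in the fit of all 24 libraries. Depth limits the 8 hpf base, where the steepest riser had 6 and 4 reads.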
